A study of Mus musculus with 6 samples.

Results

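The list comprised 32 genes reported in other cell types as targets of the microRNA miR-155, outside the main signalling families, and was examined in cultured mouse mast cells that lacked or carried miR-155. They were chosen by name. A gene was read from a probe set that the platform annotation pairs with 1 gene symbol, and from the brightest one where there were several. This gave values for 29 of the 32 genes, out of 19938 genes tested on the arrays. The list's Skiv2l2, an RNA helicase of the nuclear exosome, is carried in the annotation under its current symbol Mtrex. Ripk1, Picalm and Arl5b were not analysed here.

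The cells were bone marrow derived mast cells of C57BL/6J background, from miR-155 KO mice or from wild type (WT) mice. Cells of both genotypes were grown for 5 weeks with 0.5 ng/ml IL-3 and 1 ng/ml SCF. All were loaded overnight with 0.2 µg/ml IgE against the hapten DNP and then exposed for 1 h to 20 ng/ml of the antigen DNP-HSA, which cross-links the IgE receptor FcεRI. There were 3 independent cultures per genotype and 1 Affymetrix Mouse Gene 1.0 ST array per culture. No unstimulated array was used here, so the values compare genotypes after stimulation. The labels give neither the age of the mice nor the allele by which miR-155 was removed.

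MicroRNAs guide Argonaute proteins to partly complementary sites, mostly in the 3' untranslated region of a messenger RNA, where they shorten the life of the message or lower its translation. Pairing rests mainly on the seed, a short stretch near the 5' end of the microRNA. miR-155 is induced in activated immune cells. Its reported targets include transcription factors, chromatin regulators, SMAD proteins and regulators of growth and innate signalling, and many were described in macrophages, B cells, T cells or tumour cells. An effect that acts only on translation leaves the messenger RNA, which is all that an array reads, as it was.

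The microRNA removed in the KO cells is shown here because its seed defines the target class. The precursor lies on the plus strand at chr16:84714140-84714204 of GRCm38.p6, and the main mature strand, miR-155-5p, at chr16:84714143-84714165. The sequences are those of RefSeq. In the mature strands the capitals mark the seed, bases 2 to 8, and in the precursor they mark the miR-155-5p arm.
miR-155-5p: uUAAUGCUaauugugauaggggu
miR-155-3p: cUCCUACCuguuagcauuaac
precursor: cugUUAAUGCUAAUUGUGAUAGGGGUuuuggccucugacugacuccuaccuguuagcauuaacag
A transcript paired to the whole seed of miR-155-5p would carry AGCATTA in DNA letters. Of the 1738 mature mouse microRNAs in the RefSeq table, miR-155-5p was the only 1 with this seed, so no other microRNA in that table shares its full seed. The untranslated regions of the 29 genes were not used here, and which of them hold this stretch was not examined.

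The probe set for Mir155 read 2.77, 2.91 and 2.90 on the KO arrays, against 2.93, 2.88 and 3.17 on the WT arrays (log2 intensity). These values are near the bottom of the range in both genotypes and overlapped, so they give no check of the genotype labels. Of 15 mast cell marker genes, 15 were above the background level defined in the next paragraph, among them Fcer1a, Kit and Cpa3. Mast cell marker Hs3st1, a heparan sulfate sulfotransferase named after its values were seen, was the 1 of the 15 called higher (7.69 in KO and 7.07 in WT arrays, adjusted p = 0.0363). Over all genes 0.507% were called higher. The Hs3st1 call was not re-examined with an array left out. Above background were 4 of 5 basophil, 4 of 6 erythroid and megakaryocyte, 5 of 10 dendritic cell, 4 of 9 lymphocyte and 3 of 10 neutrophil markers. Among all genes 12526 of 19938 were above it, so these counts alone do not show that such cells were present. Over all genes the arrays correlated at 0.983 to 0.996, and KO replicate 1 lay apart from the other arrays on the first principal component (32.0, against 5.36 and 7.31 for the other KO arrays and -19.5 to -10.6 for the WT arrays).

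Levels are log2 RMA intensities, in which 1 unit is a doubling, and they order probe sets only roughly because probes differ in how brightly they bind. The background level was set at 3.35, the 95th percentile of the mean over 6 arrays of 1194 olfactory and vomeronasal receptor genes, a class used in few tissues outside the nose. By this measure 29 of the 29 measured targets were above background, as were 12526 of the 19938 genes tested. Rhoa was brightest, with a mean of 10.54, and Sla, Myb, Hif1a, Gna13, Wee1, Mtrex, Meis1, Rheb and Cux1 followed between 8.89 and 8.01. Smad2, Fbxo11, Hbp1, Zfp652, Tbc1d14, Bach1, Peli1, Arid2, Smad5 and Msh6 lay between 7.40 and 6.11. Rictor, Jarid2, Smad1, Dhx40 and Ets1 lay between 5.97 and 5.09, and Maf, Tle4 and Trim32 between 4.49 and 4.10. Csf1r was dimmest at 3.44, below the median gene of the array (3.92) and below the stricter 99th percentile of the receptor genes (4.06), where 28 of the 29 remained. The levels on each array show that neighbours in this order often overlapped, and that group means of a gene were at most 0.51 apart.

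**Figure D1:**
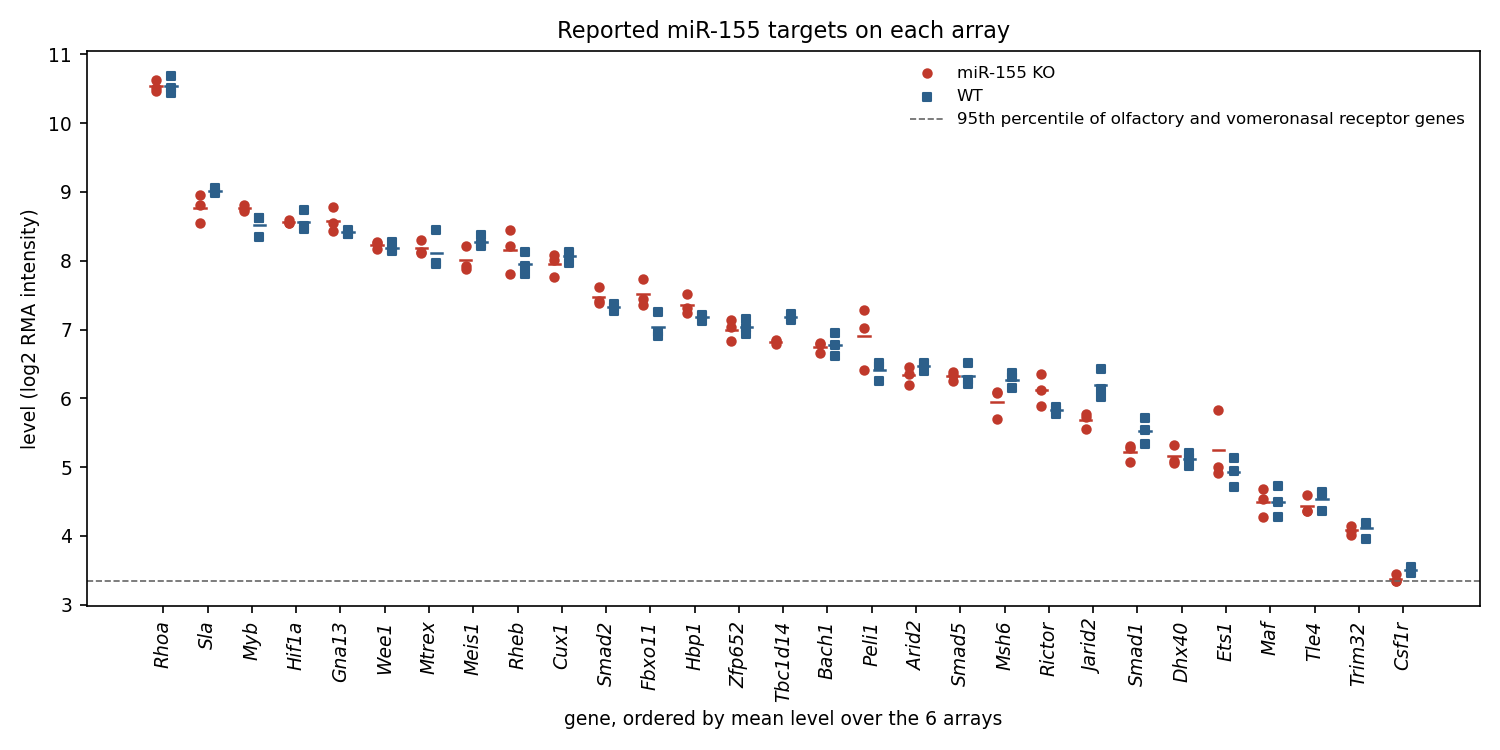
Level of each of the 29 measured targets on each array (log2 RMA intensity, vertical axis), ordered by mean level; circles are the 3 miR-155 KO arrays, squares the 3 WT arrays, short lines the group means, and the dashed line is the background level of 3.35. Levels run from Rhoa at 10.54 to Csf1r at 3.44, and group means of a gene are at most 0.51 apart.

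None of the measured targets passed the test between miR-155 KO and WT cells. By limma, with Benjamini-Hochberg adjustment over the 19938 genes, 0 of the 29 were higher in KO and 0 were lower at an adjusted p under 0.05, where 0.823% of all genes passed (0.507% higher and 0.316% lower) and 1.30% of genes above background. Differences, KO minus WT on the log2 scale, were positive for 13 genes and negative for 16. They ran from -0.51 for Jarid2 to 0.49 for Peli1, with a median of -0.0042. Over all genes the median was -0.0065, and over the 12526 genes above background it was -0.0039. The middle of the list lay between -0.12 and 0.17 (quartiles), against -0.12 and 0.11 over the genes above background. Beside the WT mean, the median target stood at -0.03, 0.0048 and 0.03 on KO replicates 1, 2 and 3, and at -0.05, -0.01 and 0.05 on the WT replicates, so the genotypes overlapped. By level, the brighter 14 targets had a median difference of 0.05 and the dimmer 15 of -0.03.

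**Figure D2:**
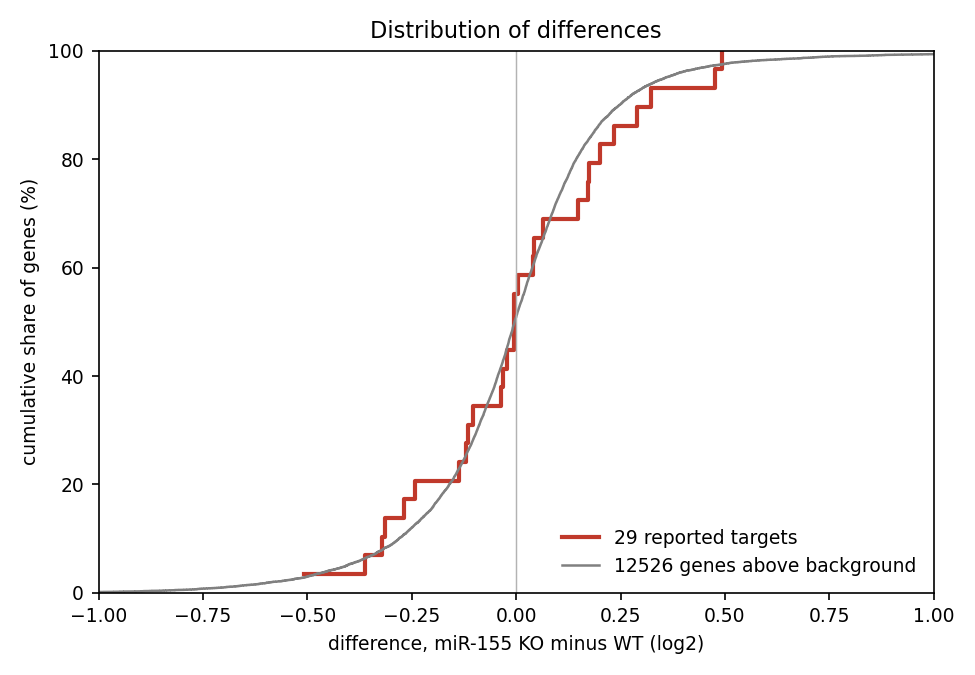
Cumulative share of genes (vertical axis, %) by difference, miR-155 KO minus WT (horizontal axis, log2), for the 29 measured targets and for the 12526 genes above background; the horizontal axis is limited to between -1 and 1. The curves cross near 0, at medians of -0.0042 for the targets and -0.0039 for the genes above background.

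At an unadjusted p under 0.05, 4 targets were on the higher side (Fbxo11, Peli1, Rictor and Myb) and 5 on the lower side (Jarid2, Tbc1d14, Msh6, Smad1 and Meis1), together 31.0% of the 29. Among all genes 12.7% had such a p (6.24% higher and 6.45% lower), and among genes above background 18.6% (9.20% higher and 9.40% lower). No test of that share was made, and the list was not chosen at random. The KO arrays lay wholly above the WT arrays for 5 targets and wholly below for 6, 37.9% in all, where 17.2% of all genes did not overlap (8.18% above and 9.05% below), and 21.9% of genes above background (10.8% above and 11.1% below). The 95% interval of the difference, taken gene by gene, ended below 0.5 for 24 of the 29 genes. That bound was picked after the values were seen. The same held for 18337 of all 19938 genes and for 11037 of the 12526 genes above background. Among the targets the interval reached beyond 0.5 for Peli1, Ets1, Fbxo11, Rheb and Rictor.

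**Figure D3:**
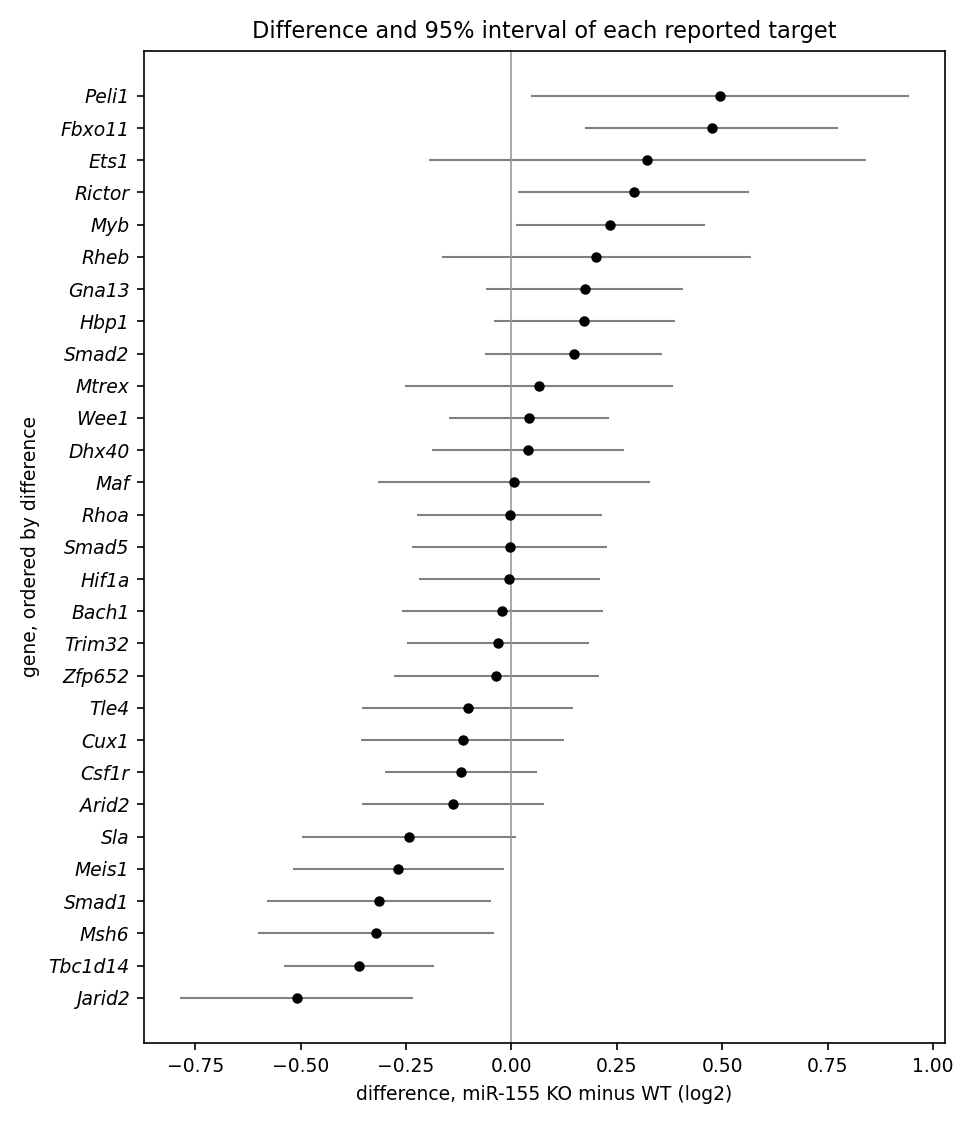
Difference, miR-155 KO minus WT (log2, horizontal axis), of each of the 29 measured targets with its unadjusted 95% interval from limma, ordered by difference. Intervals lie wholly above 0 for 4 genes and wholly below 0 for 5, and none of the 29 passed after adjustment over all genes.

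Among the transcription factors, Bach1 and Hif1a overlapped between the genotypes. Bach1 encodes a heme-sensitive repressor of antioxidant and iron genes and is among the targets most often cited for miR-155. It read 6.66, 6.79 and 6.80 in KO arrays, against 6.61, 6.94 and 6.77 in WT arrays. The KO values lay within the WT range, and the difference was -0.02 (SE 0.10, 95% interval -0.26 to 0.22, adjusted p = 0.970). Hif1a encodes the oxygen-regulated subunit of the hypoxia-inducible factor. It read 8.59, 8.56 and 8.55 in KO arrays, against 8.51, 8.47 and 8.73 in WT arrays, a difference of -0.0049 (SE 0.09, interval -0.22 to 0.21, adjusted p = 0.992).

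Of the genes listed as BACH1 partners or targets 4 rose, and Bach1 itself did not differ by more than its spread. Whether BACH1 acted on these genes was not tested. The list of 18 measured partners and target genes was written from general knowledge, with earlier results of these data known. It had 4 called higher, 0 lower and 14 that did not pass, where 0.507% of all genes were called higher. The 4 were Slc7a11, Txnrd1, Nqo1 and Gclm. Nqo1 and Gclm were named after their values were seen. Slc7a11, the cystine transporter, read 6.11, 5.86 and 6.69 in KO arrays, against 4.17, 4.46 and 4.55 in WT arrays (3.55-fold, SE 0.20 on the log2 scale, adjusted p = 0.00827). Txnrd1, cytosolic thioredoxin reductase, read 9.57, 9.60 and 9.55 in KO arrays, against 8.94, 9.02 and 9.03 in WT arrays (1.49-fold, SE 0.08, adjusted p = 0.0194). Every KO array was above every WT array for both genes.

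Nqo1, a quinone reductase, rose 1.48-fold (8.68 ± 0.12 in KO and 8.12 ± 0.05 in WT, SD, n = 3 each, limma adjusted p = 0.0363). Gclm, the modifier subunit of the enzyme that begins glutathione synthesis, rose 1.53-fold (9.43 ± 0.06 in KO and 8.82 ± 0.19 in WT, limma adjusted p = 0.0495). All 4 are also known targets of the activator NRF2, whose gene Nfe2l2 differed by -0.10 (adjusted p = 0.759). Keap1, also in the list, differed by -0.23, with every KO array below every WT array, and did not pass (adjusted p = 0.240). Heme oxygenase, Hmox1, the classic BACH1 target, differed by 0.62 and did not pass (adjusted p = 0.129), and the small MAF partners Mafg, Mafk and Maff differed by -0.0092, 0.0074 and 0.10. Nfe2l2, Keap1, Hmox1 and the small MAF genes too were picked after their values were seen. The median difference of the list was 0.11. With 1 array left out it lay between 0.12 (without KO replicate 2) and 0.20 (without KO replicate 3). Leaving out 1 array ended several calls: Slc7a11 passed in 5 of 6 such fits (lost without WT replicate 1, adjusted p = 0.0542, and 0.00209 to 0.0855 over the 13 alternatives), Txnrd1 in 2 (lost without KO replicate 3 or any 1 WT replicate, adjusted p 0.00848 to 0.0979 over the alternatives), and Nqo1 and Gclm in 0 (0.0220 to 0.159 and 0.0236 to 0.183 over the alternatives). Without KO replicate 1, the array that lay apart, 2 of the list were called higher and 0 lower.

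**Figure D4:**
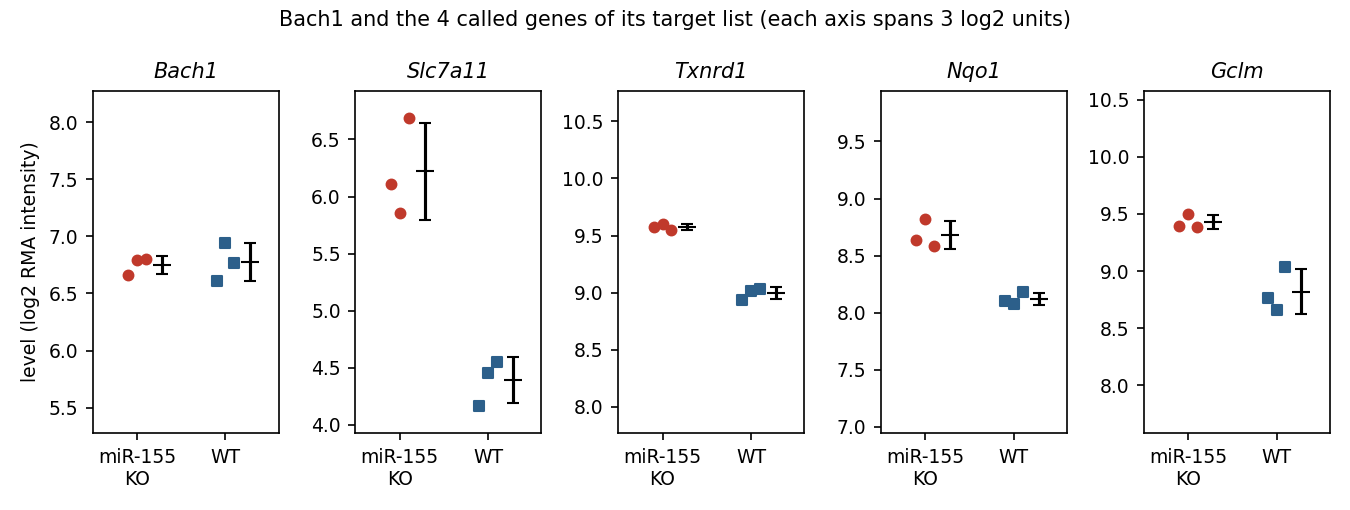
Levels (log2 RMA intensity, vertical axes, each spanning 3 units) of Bach1 and of the 4 called genes of its target list on each miR-155 KO array (circles) and WT array (squares), with group mean and SD (n = 3) beside the points. Bach1 values overlap between genotypes, at means of 6.75 in KO and 6.77 in WT, while the KO points of Slc7a11, Txnrd1, Nqo1 and Gclm lie above all WT points.

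Of 25 measured partners and target genes of HIF1A, 0 rose, 1 fell and the other 24 missed the threshold, where 0.316% of all genes were called lower. Differences were negative for 19 of the 25, with a median of -0.13. They were negative for 10372 of all 19938 genes and for 6377 of the 12526 above background. This list too was written with earlier results of these data known, and its lean was not tested. The median member stood below the WT mean on each KO array (-0.11, -0.26 and -0.16 on KO replicates 1, 2 and 3). Leaving out 1 array moved the median to between -0.22 (without KO replicate 1) and -0.0995 (without KO replicate 2). Ddit4 encodes an mTOR inhibitor that stress induces. It read 8.54, 8.47 and 8.65 in KO arrays, against 9.20, 9.28 and 9.22 in WT arrays, a log2 change of -0.68 (SE 0.08) that passed as lower in KO (adjusted p = 0.0126). The call was lost without any 1 of the WT replicates (adjusted p 0.00548 to 0.0906 over the alternatives). P4ha1, a collagen prolyl hydroxylase, had a difference of -0.50 that missed the threshold (adjusted p = 0.0903) and passed in 1 of the 13 alternatives, with trend and robust priors (0.0492 to 0.233 over all).

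The other transcription factors did not pass, and Myb and Meis1 had an unadjusted p under 0.05. Myb encodes a factor needed by blood progenitors. It read 8.82, 8.72 and 8.75 in KO arrays, against 8.62, 8.35 and 8.62 in WT arrays, a difference of 0.23 (SE 0.10, adjusted p = 0.365). The groups did not overlap, with KO higher by 1.18-fold, and the difference was 0.14 without WT replicate 2. Meis1, a homeobox partner of HOX proteins, read 8.22, 7.87 and 7.93 in KO arrays, against 8.22, 8.24 and 8.37 in WT arrays, a difference of -0.27 (SE 0.11, adjusted p = 0.349). KO replicate 1 reached the lowest WT array, and the other KO arrays lay below.

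Ets1, a founding member of the ETS family, varied with 1 array. It read 5.83, 5.01 and 4.91 in KO arrays, against 5.14, 4.94 and 4.71 in WT arrays, a difference of 0.32 (SE 0.23, adjusted p = 0.653). KO replicate 1 was the highest of all 6 arrays, the rest overlapped, and without that array the difference was 0.03. Maf, a regulator of cytokine genes in T cells and macrophages, was dim at 4.27, 4.68 and 4.54 in KO arrays, against 4.49, 4.72 and 4.27 in WT arrays. The groups covered the same range, and the difference was 0.0054 (SE 0.14, adjusted p = 0.995).

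The repressors Cux1, Hbp1, Zfp652 and Tle4 completed this group. Hbp1, an HMG-box repressor of cell cycle genes, averaged 7.35 ± 0.14 in KO and 7.18 ± 0.05 in WT arrays, a difference of 0.17 without overlap (limma adjusted p = 0.520), or 0.10 without KO replicate 1. Cux1, a homeodomain factor, averaged 7.95 ± 0.17 in KO and 8.06 ± 0.09 in WT arrays (limma adjusted p = 0.753), a difference of -0.12, or -0.02 without KO replicate 1. Zfp652, a zinc finger repressor, differed by -0.04, and Tle4, a Groucho corepressor that was dim on all arrays, by -0.10 (adjusted p = 0.95 and 0.799).

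Jarid2 had the largest negative difference of the list. It encodes a DNA-binding component that helps to recruit Polycomb repressive complex 2 (PRC2), the complex that methylates histone H3 at silenced genes. Jarid2 read 5.55, 5.72 and 5.77 in KO arrays, against 6.02, 6.13 and 6.43 in WT arrays. Every KO array was below every WT array. The difference was -0.51 (SE 0.12, interval -0.79 to -0.23), 1.42-fold lower in KO, and it did not pass (adjusted p = 0.103, and 0.0689 to 0.255 over the 13 alternatives). Arid2, a subunit of a SWI/SNF chromatin remodelling complex, averaged 6.34 ± 0.13 in KO and 6.47 ± 0.07 in WT arrays (limma adjusted p = 0.643), a difference of -0.14, or -0.07 without KO replicate 1. Of 24 other Polycomb and SWI/SNF genes 0 rose and 0 fell by limma. At an unadjusted p under 0.05, 1 was on the higher and 2 on the lower side (12.5%, against 12.7% of all genes and 18.6% of those above background). The median difference was -0.02 (0.03 without KO replicate 1). The lowest p belonged to Smarca2, a remodelling ATPase, at -0.42 (adjusted p = 0.176), and Ezh2, the PRC2 methyltransferase, at -0.42 (adjusted p = 0.302).

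The SMAD genes carry signals from TGF-β and BMP receptors to the nucleus, with Smad1 and Smad5 in the BMP branch and Smad2 in the TGF-β and activin branch. Their differences had both signs. Smad1 read 5.27, 5.07 and 5.31 in KO arrays, against 5.34, 5.72 and 5.53 in WT arrays. The KO arrays were all below the WT arrays, the highest of them by a small margin, and the difference was -0.31 (SE 0.12, interval -0.58 to -0.05, adjusted p = 0.290). Smad2 averaged 7.47 ± 0.13 in KO and 7.32 ± 0.06 in WT arrays, a difference of 0.15 without overlap (limma adjusted p = 0.598), or 0.08 without KO replicate 1. Smad5 averaged 6.32 ± 0.06 in KO and 6.33 ± 0.16 in WT arrays, a difference of -0.0042 (limma adjusted p = 0.994). Of 21 other genes of the pathway 0 passed in either direction by limma, with 2 higher and 4 lower at an unadjusted p under 0.05 (28.6% of the 21, against 12.7% of all genes and 18.6% of those above background). Acvr1b, an activin type I receptor, differed by -0.69 (adjusted p = 0.124) and Skil, a SMAD-binding repressor, by 0.44 (adjusted p = 0.207).

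Rheb and Rictor act on the mTOR kinase, RHEB as the GTPase that switches on complex 1 and RICTOR as the scaffold of complex 2. Rictor read 6.35, 5.89 and 6.12 in KO arrays, against 5.88, 5.83 and 5.78 in WT arrays. The KO arrays were above the WT arrays, KO replicate 2 only just, and the difference was 0.29 (SE 0.12, interval 0.02 to 0.56, adjusted p = 0.357). Rheb averaged 8.16 ± 0.32 in KO and 7.95 ± 0.17 in WT arrays, overlapping, with a difference of 0.20 (limma adjusted p = 0.706). In both genes KO replicate 1 was the highest array. Without it the difference was 0.17 for Rictor and 0.06 for Rheb. Of 17 other genes of the complexes and their regulators 0 passed by limma and 1 had an unadjusted p under 0.05, on the higher side (5.88%, against 12.7% of all genes and 18.6% of those above background). This was Mtor, the kinase itself, at 0.33 (adjusted p = 0.167), and next came Eif4ebp1, a translation repressor that it phosphorylates, at 0.18 (adjusted p = 0.433).

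The ubiquitin ligase genes Fbxo11 and Peli1 had the largest positive differences. Fbxo11 encodes a substrate receptor of an SCF ligase that is known to degrade BCL6. It read 7.74, 7.35 and 7.45 in KO arrays, against 6.90, 6.96 and 7.26 in WT arrays. All KO arrays lay above all WT arrays, 1.39-fold on average, and the difference was 0.48 (SE 0.13, interval 0.17 to 0.78). It did not pass (adjusted p = 0.152, with alternatives from 0.127 to 0.373). Peli1 encodes Pellino 1, a ligase of Toll-like and interleukin-1 receptor signalling and itself inducible by NF-κB. It read 7.28, 6.42 and 7.02 in KO arrays, against 6.51, 6.25 and 6.48 in WT arrays. KO replicate 2 lay within the WT range and the other KO arrays above it, and the difference was 0.49 (SE 0.20, adjusted p = 0.335). Leaving out KO replicate 1 gave 0.31 (adjusted p = 0.667), and leaving out KO replicate 2 gave 0.74 (adjusted p = 0.0538), the highest and the lowest p of the 13 alternatives. Trim32, a RING ligase, was dim and averaged 4.08 ± 0.07 in KO and 4.11 ± 0.13 in WT arrays (limma adjusted p = 0.95).

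Ripk1 itself, a kinase at the fork between survival and death signals of the TNF receptor, was not measured. Of 18 measured partners 0 passed by limma, with 4 on the higher and 1 on the lower side at an unadjusted p under 0.05 (27.8%, against 12.7% of all genes and 18.6% of those above background). Tnfaip3, the ubiquitin-editing inhibitor A20, read 9.75, 8.92 and 9.15 in KO arrays, against 8.34, 8.36 and 8.28 in WT arrays. The groups did not overlap, KO replicate 1 was highest, and the difference of 0.95 (SE 0.19) did not pass (adjusted p = 0.0599). It passed in 4 of the 13 alternatives (0.0324 to 0.206), without KO replicate 1 or KO replicate 2 among them. Traf2, an adaptor ligase of the same receptor complex, differed by 0.50 (adjusted p = 0.118).

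Among genes of the membrane, cytoskeleton and vesicle traffic, Tbc1d14 had the lowest p of the whole list. TBC1D14 is a RAB-binding protein that restrains autophagosome formation. It read 6.79, 6.84 and 6.83 in KO arrays, against 7.18, 7.22 and 7.14 in WT arrays. The arrays of a genotype lay close together and the genotypes well apart, with KO 1.29-fold lower. The difference was -0.36 (SE 0.08, interval -0.54 to -0.18) and did not pass (adjusted p = 0.0815, and 0.0694 to 0.205 over the alternatives). It ran only from -0.38 to -0.34 when 1 array was left out, and like Jarid2 it lay below WT.

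Sla, an adaptor that lowers antigen receptor signalling, read 8.81, 8.55 and 8.96 in KO arrays, against 8.98, 9.003 and 9.06 in WT arrays. The KO arrays were below the WT arrays, KO replicate 3 by little, and the difference was -0.24 (SE 0.11, adjusted p = 0.423), or -0.13 without KO replicate 2. Rhoa, the small GTPase that governs actin stress fibres, read 10.52, 10.47 and 10.63 in KO arrays, against 10.43, 10.51 and 10.69 in WT arrays, a difference of -0.0042 (SE 0.10, interval -0.22 to 0.21). Its second probe set differed by 0.01. Gna13 encodes a G protein alpha subunit that activates RHOA. It read 8.77, 8.43 and 8.55 in KO arrays, against 8.39, 8.45 and 8.39 in WT arrays, overlapping through KO replicate 2, with a difference of 0.17 (SE 0.10, adjusted p = 0.567), or 0.08 without KO replicate 1.

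Csf1r, the macrophage growth factor receptor, was just above the background level. It read 3.44, 3.35 and 3.35 in KO arrays, against 3.49, 3.54 and 3.47 in WT arrays, a difference of -0.12 (SE 0.08, adjusted p = 0.627) among values that the array can barely separate from background. Of 15 macrophage and monocyte markers 6 were above background, where 12526 of all 19938 genes were. The mean level of all 15 ran from 3.66 to 3.84 in KO arrays and from 3.87 to 3.999 in WT arrays. That mean pools bright markers with others below background and does not show a shift shared by the list. The differences had both signs and ran from -0.95 for Cx3cr1 to 0.25 for C1qc. The markers Itgam, Cd14, Lyz2 and Mrc1 were below background. Cx3cr1, the 1 of the 15 called lower, read 7.85 in KO and 8.80 in WT arrays, a difference of -0.95 (adjusted p = 0.0280). Over all genes 0.316% were called lower. The Cx3cr1 call was not re-examined with an array left out. Cd68, similarly bright at 8.10 in KO and 8.46 in WT arrays, did not pass (adjusted p = 0.515). C1qc differed by 0.25, in the other direction, and did not pass (adjusted p = 0.492). The markers named here were picked after their values were seen. In cultures read as a whole, fewer cells of a type and less RNA per cell cannot be told apart, and the part of macrophage-like cells in the Csf1r values was not tested.

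Wee1 and Msh6 belong to the cell cycle and to genome upkeep. Wee1, the kinase that holds back entry into mitosis, read 8.17, 8.26 and 8.27 in KO arrays, against 8.15, 8.16 and 8.28 in WT arrays. The ranges nearly coincided, with a difference of 0.04 (SE 0.08, interval -0.15 to 0.23, adjusted p = 0.911). Msh6, a mismatch repair gene, read 5.69, 6.07 and 6.09 in KO arrays, against 6.36, 6.15 and 6.30 in WT arrays. The KO arrays were below the WT arrays and KO replicate 1 lowest, with a difference of -0.32 (SE 0.12, adjusted p = 0.308), or -0.19 without that array. Of 13 other mismatch repair and G2 checkpoint genes 0 passed by limma, with 0 higher and 3 lower at an unadjusted p under 0.05 (23.1%, against 12.7% of all genes and 18.6% of those above background). Their median difference was -0.41, and the median gene stood at -0.68, -0.18 and 0.11 on KO replicates 1, 2 and 3 and between -0.18 and 0.25 on the WT arrays. Leaving out 1 array moved that median to between -0.64 (without KO replicate 3) and -0.03 (without KO replicate 1), with -0.51 without WT replicate 2 and -0.21 without WT replicate 3. Pms1, a mismatch repair partner, differed by -0.62 (adjusted p = 0.104) and Cdc25b, a phosphatase that opposes WEE1, by -0.61 (adjusted p = 0.177). The part of cell division in the Msh6 difference was not tested.

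The RNA helicase genes overlapped between genotypes. Mtrex read 8.30, 8.13 and 8.12 in KO arrays, against 7.95, 7.96 and 8.44 in WT arrays, which spanned the KO values, with a difference of 0.06 (SE 0.14, adjusted p = 0.923). Dhx40, a DEAH-box helicase, averaged 5.15 ± 0.14 in KO and 5.11 ± 0.10 in WT arrays (limma adjusted p = 0.935).

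Reported targets from the signalling families, a separate list of 26 measured genes, had 0 that rose and 1 that fell by limma. The other 25 missed the threshold, and the median difference was -0.05, where 0.316% of all genes were called lower. At an unadjusted p under 0.05, 3 were higher and 7 lower (38.5%, against 12.7% of all genes and 18.6% of those above background). Wholly above WT lay 3 of the 26, where 8.18% of all genes and 10.8% of those above background did. Wholly below WT lay 9 of the 26, where 9.05% of all genes and 11.1% of those above background did. The gene that fell was Tgfbr2, the TGF-β type II receptor, which works upstream of Smad2. It read 6.69, 6.74 and 6.69 in KO arrays, against 7.23, 7.36 and 7.37 in WT arrays, 1.53-fold lower in KO without overlap (difference -0.61, SE 0.08, adjusted p = 0.0179). It was lost without KO replicate 3 or any 1 WT replicate (adjusted p 0.0154 to 0.0979 over the alternatives). Il17ra, an interleukin-17 receptor chain, had a difference of -0.61 (SE 0.13, adjusted p = 0.0821) and passed in 1 of the 13 alternatives, without KO replicate 2 (0.0389 to 0.241 over all).

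Of 18 genes of the microRNA machinery 0 rose and 0 fell by limma, with 3 higher and 2 lower at an unadjusted p under 0.05 (27.8%, against 12.7% of all genes and 18.6% of those above background). Ago1, an Argonaute protein, read 7.55, 7.39 and 7.48 in KO arrays, against 7.01, 7.09 and 6.91 in WT arrays, a difference of 0.47 (SE 0.09) without overlap that did not pass (adjusted p = 0.0531, and 0.0520 to 0.183 over the alternatives). Drosha, the nuclear nuclease that releases the precursor, differed by -0.35 (SE 0.10, adjusted p = 0.179). Among 33 family relatives of the listed targets 0 passed by limma, with 4 higher and 2 lower at an unadjusted p under 0.05 (18.2%, against 12.7% of all genes and 18.6% of those above background). Their median was 0.03, or -0.03 without WT replicate 2 and 0.0089 without WT replicate 3. Ets2, the relative of Ets1, differed by -0.54 (adjusted p = 0.156) and Tle3, the relative of Tle4, by 0.53 (adjusted p = 0.202).

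**Figure D5:**
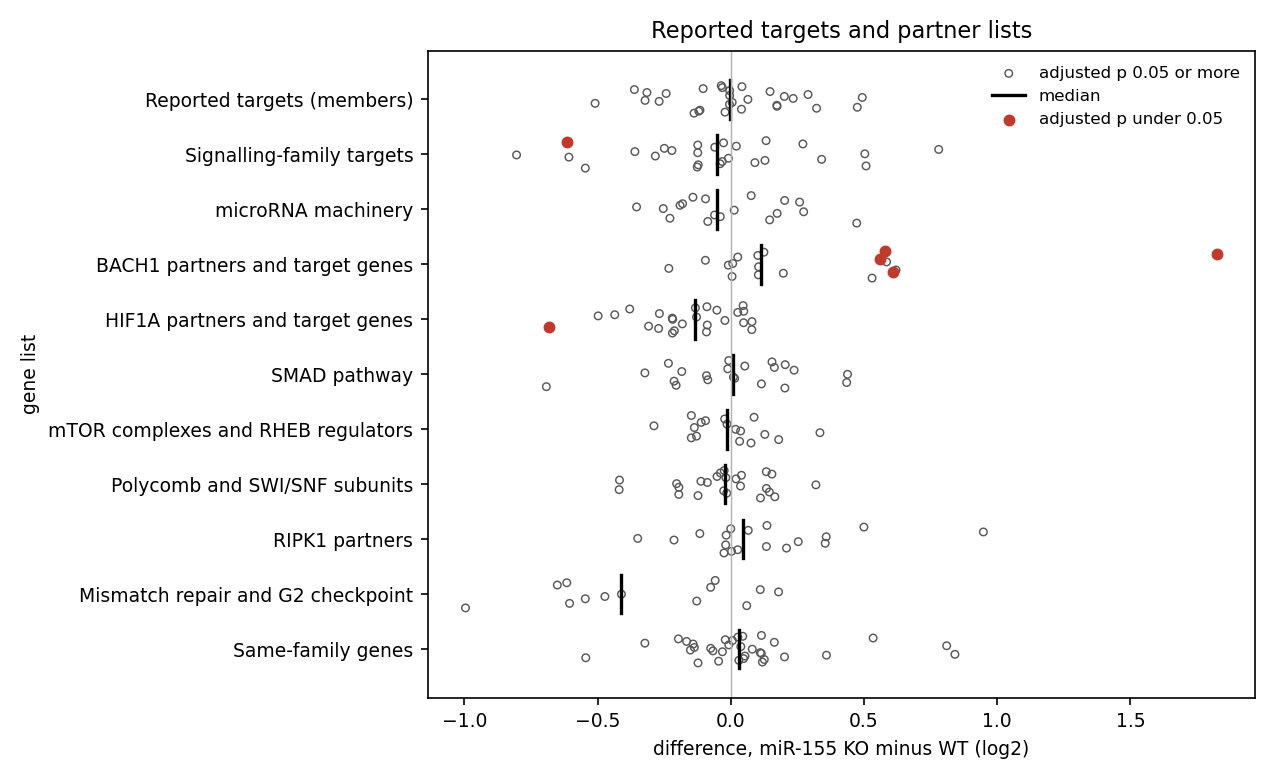
Difference, miR-155 KO minus WT (log2, horizontal axis), of the 29 measured targets and of the genes of each partner list; each circle is a gene, filled circles passed at an adjusted p under 0.05 over all genes, and black bars are list medians. No filled circle lies among the targets, 4 lie among BACH1 partners and target genes, and 1 each among signalling-family targets and HIF1A partners and target genes.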

How the data were processed

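The deposited values are log2 intensities that the authors made with RMA, per the submitters' processing notes, from 6 Affymetrix arrays. For the RMA version and the probe sets' genome build, nothing is given in the sources used here. The method corrects background, normalizes between arrays and summarises probes, and no further normalization was applied (column medians 3.67 to 3.74). Of 35557 probe sets, 21789 had 1 gene symbol, 1621 several and 12147 were not listed and stay unnamed. The brightest probe set of each gene left 19938 genes.

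Genotype was the only term in limma 3.58.1 (lmFit and eBayes, R 4.3.3), with 4 residual and 4.68 prior degrees of freedom. Tests were two-sided and adjusted by Benjamini-Hochberg over all genes, with a threshold of 0.05. SE and 95% intervals are limma's moderated ones, and SD is over 3 arrays. An exact permutation test of 3 against 3 cannot go below p = 0.1, and none is reported. The fit was checked on 10 simulated sets with 200 changed genes each. It recovered 51.7% of log2 changes of 0.5 and 99% of changes of 1, with 6.53% false calls. A change of 0.5 in a target can thus miss the threshold.

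Named with 6 values were the 8 brightest targets, those with an unadjusted p under 0.05, and Bach1, Jarid2, Ets1, Hif1a, Maf and Csf1r. Of each partner list the 2 genes with the lowest p were named, some with 6 values and the others by their difference. Members and lists were chosen with earlier results of these data known. Alternatives were a replicate block, median centring, repeated quantile normalization, only genes above background, trend and robust priors, every probe set, averaged probe sets and leaving out each array. The number of arrays limits the precision. Plots used matplotlib 3.10.9.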

Additional observations from a re-analysis of the deposited data

How the results depend on the processing

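In each of the 13 alternatives 0 of the 29 targets passed in either direction, and the median target difference stayed between -0.03 and 0.02. Of the 29 differences, 20 kept their sign throughout. The other 9 were at most 0.06 in size and changed sign without passing. With median centring Maf was at -0.0093, and with repeated quantile normalization Maf was at -0.020 and Smad5 at 0.0036. Averaged probe sets put Rhoa at 0.0036. When 1 array was left out, Rhoa ran from -0.058 to 0.068, Hif1a from -0.057 to 0.076, Mtrex from -0.022 to 0.23, Zfp652 from -0.11 to 0.051, Bach1 from -0.10 to 0.064, Smad5 from -0.065 to 0.089, Dhx40 from -0.040 to 0.084, Maf from -0.11 to 0.12 and Trim32 from -0.11 to 0.0089. The background count for calls depended more on the setting. Among all genes 101 were higher and 63 lower, and the lower count was 100 with repeated quantile normalization, 95 over genes above background and 105 with trend and robust priors. With every probe set tested 4 were higher and 0 lower, and among partner genes 0 and 0. Leaving out 1 array gave 13 to 127 higher and 2 to 40 lower genes over all, and 0 to 3 higher and 0 to 3 lower partner genes, against 4 and 2 with all arrays. Replicate numbers are shared between genotypes. Same-numbered arrays deviated together only for number 3 (r = -0.01, -0.06 and 0.24 across genes), and KO replicate 1 correlated best with WT replicate 2 (r = 0.24). With 3 arrays per genotype, such correlations cannot show whether same-numbered arrays were made together. The main fit did not pair them. The replicate block gave 0 and 0 targets, 112 higher and 87 lower genes, and 2 higher and 2 lower partner genes. The causes were not tested. Signal limits Csf1r most, which lay near background.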
